A study of Mus musculus with 57 samples.

Results

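The genes described here are 10 members of the Notch signalling pathway, measured in mouse embryonic stem (ES) cells that differentiated in retinoic acid (RA). They are the receptors Notch1, Notch2 and Notch3, the ligands Dll1, Dll3 and Jag1, the receptor-modifying enzyme Lfng, and the target genes Hes1, Hes5 and Hey1. They were chosen by name, by matching Ensembl gene identifiers to GENCODE M21 symbols, and are 10 of the 55450 genes in the count table. All 10 passed the filter on low counts over the 57 libraries, as did 29607 genes in all. RNA was sequenced from 19 conditions with 3 replicates each. Every library came from the Sox1-EGFP/FoxA2mCherry reporter line, a single clone made with CRISPR-Cas9 from the 46C line, in which EGFP takes the place of one Sox1 allele and mCherry is added at the 3′ end of FoxA2. Cells were grown in serum with LIF, and day 0 (D0) is the Sox1-FoxA2- population before RA. In the sorted series, cells spent 2, 4 or 6 days (D2, D4, D6) in N2B27 medium with 1 uM RA and were then sorted by both reporters into Sox1-FoxA2-, Sox1+FoxA2-, Sox1-FoxA2+ and Sox1+FoxA2+ populations, which with D0 gives 13 conditions and 39 libraries. In the progeny series, the last 3 populations were sorted at D2, replated in serum medium without LIF but with 1 uM RA, and collected at D4 or D6 without a second sort, which gives 6 conditions and 18 libraries. Progeny and sorted cells of the same day therefore differ in replating, in medium and in the time of sorting, and these cannot be told apart. The comparisons ask how Notch components differed between populations that express a neural (Sox1) or an endodermal (FoxA2) reporter, and over time.

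Notch receptors are membrane proteins that are activated by ligands on a neighbouring cell. Binding lets ADAM proteases and then the gamma-secretase complex cut the receptor. The freed intracellular domain enters the nucleus, where it joins the DNA-binding protein Rbpj and a Mastermind (Maml) protein and turns on targets such as the Hes and Hey repressors. In the developing nervous system the pathway is known for holding the neighbours of a differentiating cell in the progenitor state, with Dll1 on the differentiating cell and Hes1 and Hes5 in the progenitor.

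In the genome build of the count table (GRCm38, GENCODE M21), Notch1 (ENSMUSG00000026923.15) lies on chromosome 2, from 26457903 to 26516663. Notch2 (ENSMUSG00000027878.11) lies on chromosome 3, from 98013527 to 98150361, and Notch3 (ENSMUSG00000038146.8) on chromosome 17, from 32120820 to 32166852. Dll1 (ENSMUSG00000014773.13) also lies on chromosome 17, from 15367354 to 15376872. Dll3 (ENSMUSG00000003436.11) lies on chromosome 7, from 28293553 to 28302238, and Jag1 (ENSMUSG00000027276.7) on chromosome 2, from 137081456 to 137116644. Lfng (ENSMUSG00000029570.5) lies on chromosome 5, from 140607320 to 140615545. Hes1 (ENSMUSG00000022528.8) lies on chromosome 16, from 30064384 to 30067796, Hes5 (ENSMUSG00000048001.7) on chromosome 4, from 154960923 to 154962371, and Hey1 (ENSMUSG00000040289.8) on chromosome 3, from 8663359 to 8667256. Notch2, Lfng, Hes1 and Hes5 are on the plus strand and the other members on the minus strand. A count is a sum over all exons of a gene. Hes5 shares 31.77% of its exon bases and Dll1 20.55% with overlapping genes, the largest shares among the members, each with a non-coding gene on the other strand whose median count was 0. Notch1 shares 9.76%, in part with 0610009E02Rik, a transcript of the other strand with a median count of 60. Reads in such shared bases may not have been counted for either gene, which was not tested.

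The promoters of Hes5 and Lfng are shown because they hold the letters GTGGGAA, the core of the site that Rbpj binds. RefSeq promoter windows (GRCm38.p6, 250 bases before to 50 after the start of transcription) were at hand for 8 of the 10 members, in 9 windows, and both strands were searched. Hes1 and Hey1 had no window. In the Hes5 window the letters stood at -83 on the plus strand and at -226 on the minus strand, where they read TTCCCAC. In the Lfng window they stood at -109 on the plus strand, and the windows of the other members did not hold them. Of 32851 promoters of this length, 2097 or 6.38% held them, so a match describes the letters only. The matches are in capitals, and both windows are on the plus strand.
Hes5 (chr4:154960673-154960972): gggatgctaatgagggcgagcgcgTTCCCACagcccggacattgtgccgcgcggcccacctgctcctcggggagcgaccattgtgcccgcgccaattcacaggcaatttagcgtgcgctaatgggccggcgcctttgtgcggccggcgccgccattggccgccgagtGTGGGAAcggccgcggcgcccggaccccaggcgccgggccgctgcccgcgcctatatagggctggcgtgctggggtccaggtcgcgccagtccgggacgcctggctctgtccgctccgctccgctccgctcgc
Lfng (chr5:140607091-140607390): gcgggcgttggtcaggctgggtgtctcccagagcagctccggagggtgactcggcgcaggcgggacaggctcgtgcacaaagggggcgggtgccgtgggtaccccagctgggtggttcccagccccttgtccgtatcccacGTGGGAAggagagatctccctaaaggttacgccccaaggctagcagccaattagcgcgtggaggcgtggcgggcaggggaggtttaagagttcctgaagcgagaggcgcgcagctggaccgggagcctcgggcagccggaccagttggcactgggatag

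The libraries held 10170632 to 81845651 counts, with a median of 36694379. Even numbers made up 72% to 90.5% of the counts under 100 in a library and 85.5% of the members' counts, and the cause was not tested. If a fragment added more than 1 count, the floor of 3 counts used below is too low, and folds against it are too high as bounds. Levels are given as normalized counts, which are counts divided by a size factor for the library, and are compared between genes only per kilobase of exon. All 6 pluripotency markers had at least 10 counts in each D0 library. Sox1 was listed at 0 in all 57 libraries, so the Sox1 gate could not be checked by its own transcript. Foxa2 was between 1478 and 3241 in the sorted Sox1-FoxA2+ libraries and between 0 and 324 in all sorted libraries of the FoxA2- gates. The D6 Sox1+FoxA2+ libraries stood apart, with Foxa2 at 0, 728 and 76.6 in replicates 1, 2 and 3, so replicate 1 went against its gate and replicate 3 lay within the range of the FoxA2- gates, as did D4 Sox1+FoxA2+ replicate 1 at 214. Several results that rest on these libraries are given with and without them. A panel of 7 extraembryonic endoderm markers summed to 359200 to 710988 in the D6 Sox1-FoxA2+ libraries, against 3974 to 5044 in the D6 Sox1+FoxA2- libraries and 38501 to 256020 in the D6 Sox1+FoxA2+ libraries.

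All 3 receptor transcripts were found in every library, and all 3 had their lowest condition mean at D0. Per kilobase of exon, Notch2 had the highest mean level of the receptors in each of the 19 conditions, with a median over conditions of 352.7 normalized counts per kilobase, against 150.2 for Notch3 and 95.51 for Notch1. Notch2 rose between D0 and D2 and was higher in D6 progeny than in D6 sorted cells, and these were the only calls for any member in 233 tests over 26 comparisons. A call is an adjusted p under 0.05 in the quasi-likelihood test of edgeR, adjusted by Benjamini-Hochberg over all genes tested. In the same 233 tests, 33 had an unadjusted p under 0.05 and DESeq2 called 15. Over all genes, the fewest with such a p were 954 of 20697, for Sox1+FoxA2+ minus Sox1+FoxA2- in D4 progeny. The most were 7495 of 25515, for D6 progeny minus sorted cells. DESeq2 called 34 and 6152 genes in these comparisons, so the member counts are not read as a result about the pathway.

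**Figure D1:**
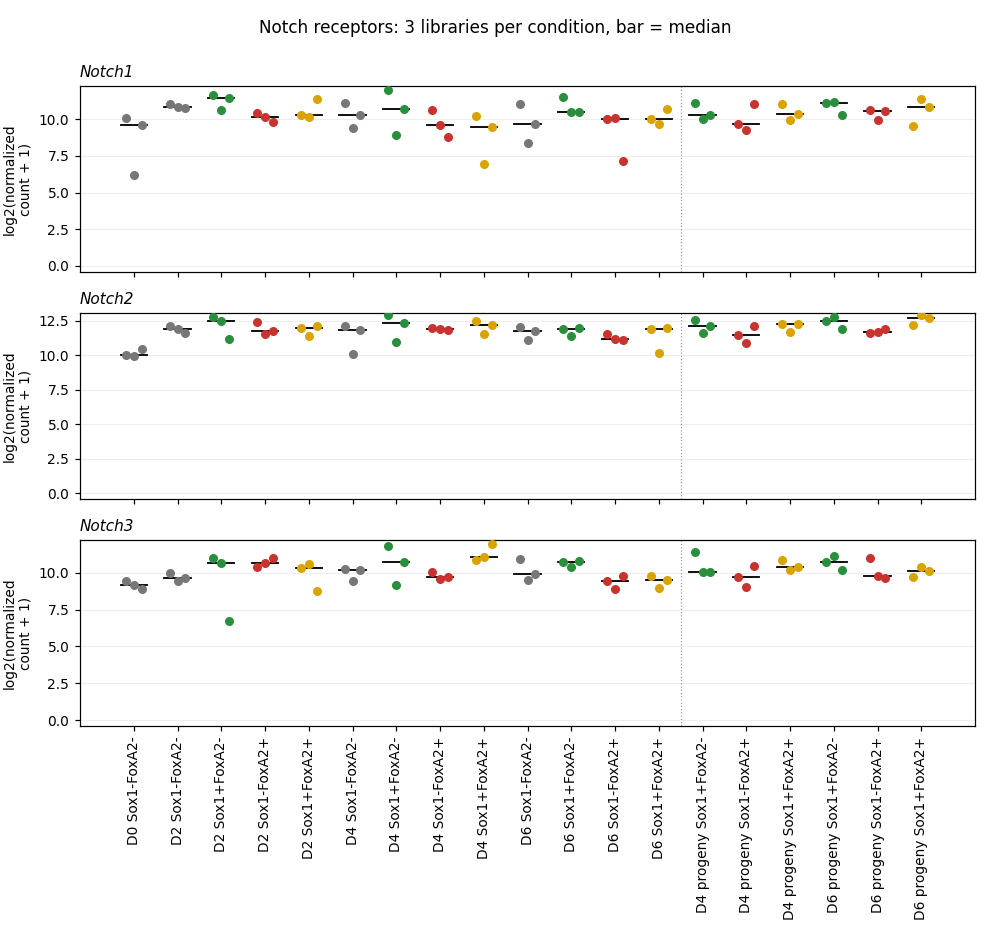
Levels of Notch1, Notch2 and Notch3 in the 57 libraries, as log2(normalized count + 1) on the vertical axis, for the 19 conditions on the horizontal axis. Each point is a library and each black bar the median of 3, with Sox1-FoxA2- in grey, Sox1+FoxA2- in green, Sox1-FoxA2+ in red and Sox1+FoxA2+ in yellow, and a dotted line separates sorted from progeny conditions. The D0 libraries of Notch2 (1009 to 1383) lie below those of D2 Sox1-FoxA2- (3215 to 4392).

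Notch2 stood at 1068, 1009 and 1383 normalized counts in the D0 libraries and at 4392, 3803 and 3215 in the D2 Sox1-FoxA2- libraries. All 3 D2 libraries were above all 3 D0 libraries. In this comparison the libraries of 24% of all genes tested did not overlap. The difference was 1.76 on the log2 scale (SE 0.406, n = 3 against 3, adjusted p = 0.0415 in edgeR), with 1.41% of the 21278 genes tested called in this comparison. The call was lost without any 1 of the 6 libraries, at adjusted p from 0.0628 to 0.151, while the difference stayed between 1.66 and 1.92. Marker sums moved with it. The sum of 6 neural progenitor markers was 839 to 3133 in D0 and 4290 to 17049 in D2 libraries, with 2 of 6 called higher, Meis2 and Hoxb1. That of 6 pluripotency markers was 25288 to 77669 and 10309 to 33361, with 1 of 6 called lower. At D2 the neural progenitor sum did not separate the gates, with 11846 to 24474 in Sox1-FoxA2+ and 5506 to 23225 in Sox1+FoxA2- cells. The part of these markers in the result was not tested. Bulk libraries cannot tell a larger share of cells with a transcript from more transcript per cell, here or in the results that follow.

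Over the 19 conditions, Notch2 reached its highest mean in D6 progeny of Sox1+FoxA2+ cells, at 4646, 7580 and 6612, followed by D6 progeny of Sox1+FoxA2- cells, at 5860, 6975 and 3910. D6 progeny of Sox1-FoxA2+ cells stood at 3118, 3301 and 3757, below every library of the other progeny populations of that day. These gaps were not called: Sox1-FoxA2+ minus Sox1+FoxA2- progeny was -0.77 on the log2 scale (SE 0.259, adjusted p = 0.107) and Sox1+FoxA2+ minus Sox1-FoxA2+ progeny was 0.88 (SE 0.259, adjusted p = 0.079). DESeq2 called the second, at an adjusted p of 0.0198. Sorted D6 cells of these gates had lower means, with 3917, 2664 and 4016 in Sox1+FoxA2-, 3066, 2278 and 2170 in Sox1-FoxA2+ and 3798, 1153 and 4126 in Sox1+FoxA2+ cells. When the conditions were put in order of their means, neighbours overlapped at 17 of 18 places, and only the lowest pair, D6 Sox1-FoxA2+ and D0, did not overlap.

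Notch1 was most abundant in D2 Sox1+FoxA2- cells, at 3258, 1586 and 2726, and D2 Sox1-FoxA2+ cells had 1346, 1124 and 881. The FoxA2+ libraries were all lower. The difference of -1.15 (log2, SE 0.378) was not called, at an adjusted p of 0.91, and no gene of 20369 was called in this comparison by edgeR (percent called 0). There 1037 genes, Notch1 and Dll3 among them, had an unadjusted p under 0.05, and DESeq2 called 261 genes and no member. Sox1+FoxA2- libraries were also above the Sox1-FoxA2+ libraries at D6, at 2955, 1427 and 1462 against 1026, 1093 and 140, with a difference of -1.11 (SE 0.753, adjusted p = 0.55). At D0, Notch1 was at 1105, 71.2 and 790, so that 1 library was far below the others. The D2 Sox1-FoxA2- libraries, at 2056, 1858 and 1706, were above all of them, and the difference of 1.56 (SE 0.756, adjusted p = 0.325) was not called. All 18 pairs of neighbours overlapped when the 19 conditions were put in order.

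Notch3 had its highest mean in D4 Sox1+FoxA2+ cells, at 1902, 2139 and 3887, above the D4 Sox1-FoxA2+ libraries at 1034, 767 and 821. The ranges did not overlap and the difference of 1.25 (log2, SE 0.569) was not called, at an adjusted p of 0.471, nor was it without Sox1+FoxA2+ replicate 1 (1.33, adjusted p = 0.44). In Sox1-FoxA2+ cells Notch3 went from 1319, 1623 and 2014 at D2 to 678, 473 and 890 at D6. Every D6 library was below every D2 library, with a difference of -1.41 (SE 0.444, adjusted p = 0.148), and DESeq2 called it at an adjusted p of 0.044. At D6 the Sox1+FoxA2- libraries, at 1702, 1364 and 1814, were above both FoxA2+ populations, since Sox1+FoxA2+ libraries had 866, 497 and 724. Neither gap was called, with -1.11 for Sox1-FoxA2+ (SE 0.618, adjusted p = 0.424) and -1.37 for Sox1+FoxA2+ (SE 0.622, adjusted p = 1). The latter was -1.45 without Sox1+FoxA2+ replicate 1 and -1.4 without replicate 3.

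In the middle of their range over conditions, the ligands were less abundant per kilobase than the receptors. In single conditions Jag1 stood higher, at 100.4 per kilobase at D0 against 46.04 for Notch1 and 72.65 for Notch3. Dll1 was listed at 0 in 6 libraries, Dll3 in 16 and Jag1 in 1, and the median condition means per kilobase were 37.54, 5.789 and 63.42 normalized counts. Dll1 and Dll3 are Delta-like ligands. Dll1 activates receptors on neighbouring cells, while Dll3 is known to act within its own cell. Jag1 belongs to the Jagged ligands.

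**Figure D2:**
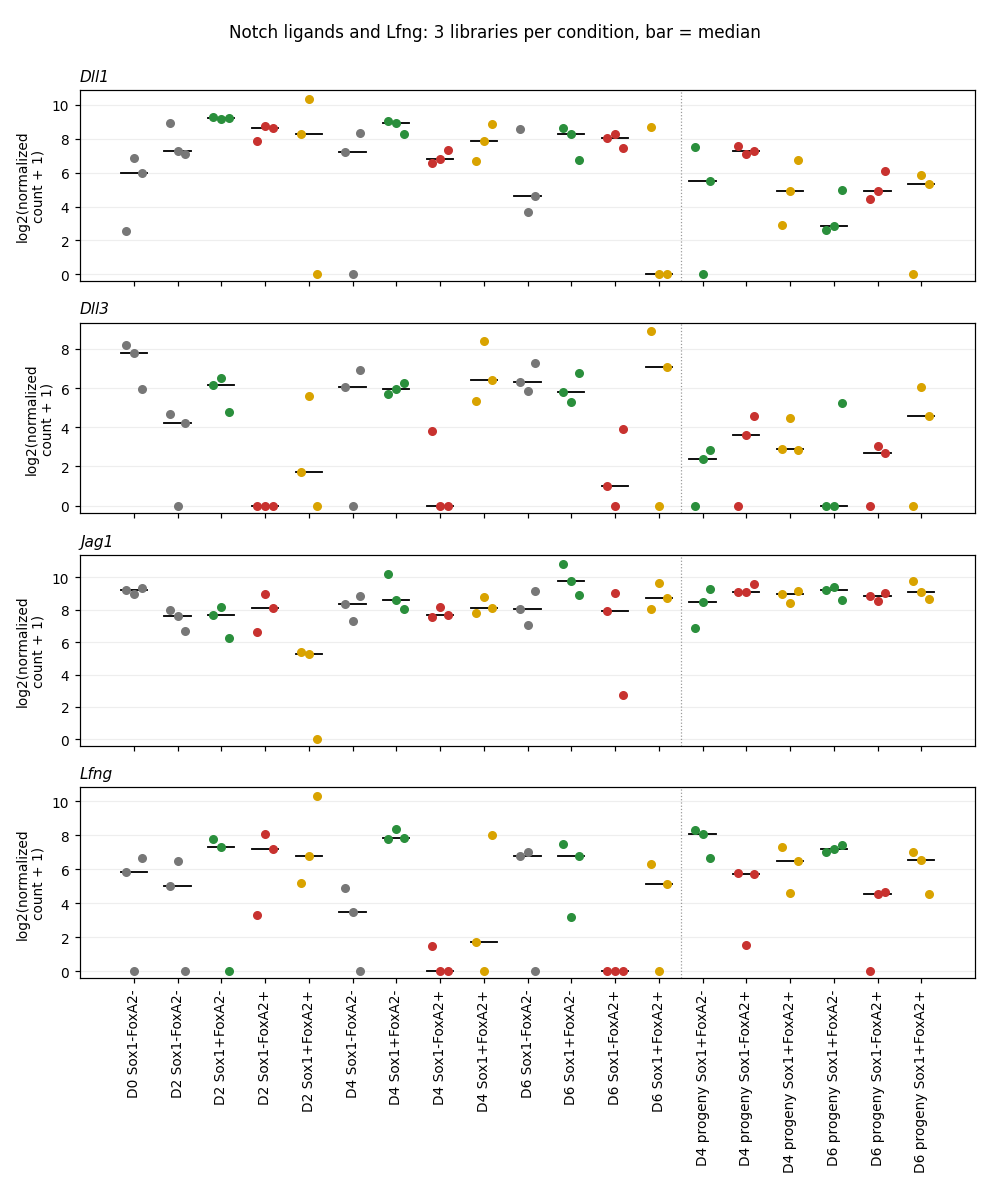
Levels of Dll1, Dll3, Jag1 and Lfng in the 57 libraries, as log2(normalized count + 1) on the vertical axis, for the 19 conditions on the horizontal axis. Points, bars, colours (grey Sox1-FoxA2-, green Sox1+FoxA2-, red Sox1-FoxA2+, yellow Sox1+FoxA2+) and the dotted line are as for the receptors. Lfng lies at 0 in all 3 D6 Sox1-FoxA2+ libraries, and Dll1 in D6 progeny (0 to 68.2) lies below most sorted libraries.

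Dll1 was highest in D2 Sox1+FoxA2- cells, at 627, 584 and 601, a spread of 21.72 (SD) around a mean of 604.1. It stood at 523, 494 and 304 in D4 and at 399, 304 and 106 in D6 cells of this gate. The D6 libraries were all below the D2 libraries, and the difference of -1.35 (log2, SE 0.776, adjusted p = 0.543) was not called. No gene of 22328 was called by edgeR between D6 and D2 Sox1+FoxA2- cells (percent called 0), where 2528 genes had an unadjusted p under 0.05 and DESeq2 called 865. Among the members Jag1 alone was in both groups. At D4 the Sox1-FoxA2+ libraries had 94.5, 110 and 160 of Dll1, all below the Sox1+FoxA2- libraries, with a difference of -1.85 (SE 1.54, adjusted p = 1).

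In D4 progeny, Dll1 stood at 187, 137 and 154 for Sox1-FoxA2+ and at 178, 0 and 43.8 for Sox1+FoxA2- cells. The ranges overlapped, and the order of the means was the reverse of that in sorted D4 cells. In D6 progeny, Dll1 stood at 5.25, 6.24 and 30.7 for Sox1+FoxA2-, at 20.7, 29.8 and 68.2 for Sox1-FoxA2+ and at 0, 57 and 39.6 for Sox1+FoxA2+ cells. These 3 conditions held the lowest means of Dll1 among the 19. The sorted D6 libraries of the same gates had 106 to 399 in the Sox1+FoxA2- and Sox1-FoxA2+ gates, and 410, 0 and 0 in the Sox1+FoxA2+ gate. As a mean over the 3 gates, D6 progeny minus sorted cells gave a fitted difference of -2.8 (log2, SE 1.18, adjusted p = 0.114), which was called by DESeq2 (-2.96, adjusted p = 0.0167). In the Sox1+FoxA2- and in the Sox1-FoxA2+ gate every progeny library was below every sorted library of that gate. Without the D6 Sox1+FoxA2+ library that went against its gate, both remaining libraries of that gate are at 0. The fitted value was then 0.48 (adjusted p = 0.645), which depends on the prior count and is no bound. Without replicate 3 of that gate the fitted difference was -3 (adjusted p = 0.0725). Without replicate 2 of that gate it was -2.92 (adjusted p = 0.0478) and was called.

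Dll3 was at 289, 218 and 62 in D0 cells, and at 24.5, 0 and 17.6 in D2 Sox1-FoxA2- cells, all below D0. The difference of -3.76 (log2, SE 2.12, adjusted p = 0.385) was not called. It was listed at 0 in all 3 D2 Sox1-FoxA2+ libraries, and at 71.6, 90.8 and 26.5 in D2 Sox1+FoxA2- cells. Against a floor of 3 counts over the condition, Dll3 was at least 85.1-fold lower in the D2 Sox1-FoxA2+ cells, and the test did not call it (adjusted p = 0.91). The D4 Sox1-FoxA2+ libraries, at 13, 0 and 0, and the D6 ones, at 1.02, 0 and 14.3, were likewise below every Sox1+FoxA2- library of the day, at 50.9, 61.5 and 75.7 and at 55.2, 37.6 and 107. The adjusted p was 1 at D4 and 0.598 at D6. In progeny the Dll3 ranges of these gates overlapped. Sox1-FoxA2+ progeny had 0, 11.3 and 23 against 0, 4.15 and 6.04 in Sox1+FoxA2- progeny at D4. At D6 the values were 0, 7.19 and 5.39 against 0, 0 and 36.9. The highest condition mean, 203.4 in D6 Sox1+FoxA2+ cells, came from 476, 0 and 134, and the highest of these was the library with no Foxa2. Without that library the mean was 66.85, below the 189.4 of D0.

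Jag1 stood at 607, 508 and 641 in D0 cells and at 253, 198 and 102 in D2 Sox1-FoxA2- cells. All D2 libraries were lower, by a difference of -1.63 (log2, SE 0.796, adjusted p = 0.327) that was not called. The highest mean of Jag1, 1069, was in D6 Sox1+FoxA2- cells, at 1846, 882 and 479, and all 3 libraries were above those of D2, at 208, 285 and 76. The difference of 2.27 (SE 0.827) had an adjusted p of 0.403 in edgeR and of 0.0499 in DESeq2. In Sox1+FoxA2+ cells Jag1 was at 41.6, 38.1 and 0 at D2, the lowest mean of the 19 conditions, and at 259, 807 and 432 at D6. That difference was 3.95 (SE 2.15, adjusted p = 0.42 in edgeR and 0.0488 in DESeq2), 4.31 without the D6 library that lacked Foxa2 and 4.07 without D6 replicate 3. Between D6 and D2 the percent called was 0.0517 for Sox1-FoxA2-, 1.98 for Sox1-FoxA2+ and 0.0887 for Sox1+FoxA2+ cells, with no member called.

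Lfng encodes Lunatic fringe, a glycosyltransferase of the Golgi that adds a sugar to Notch receptors and changes how they respond to Delta-like and Jagged ligands. It was lower in every Sox1-FoxA2+ library than in every Sox1+FoxA2- library of the same day at D4 and D6, in sorted cells and in progeny, and at D2 the ranges overlapped. Sorted D4 libraries had 1.85, 0 and 0 in Sox1-FoxA2+ cells and 221, 329 and 232 in Sox1+FoxA2- cells. Sorted D6 libraries had 0, 0 and 0 against 180, 8.06 and 111. In progeny the values were 53.4, 1.88 and 51.8 against 318, 274 and 101 at D4. At D6 they were 0, 22.6 and 24.2 against 126, 147 and 172.

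None of these gaps was called by edgeR. For these 4 pairs of gates the percent called over all genes was 0.227 (D4) and 1.09 (D6) in sorted cells and 1.86 (D4) and 6.78 (D6) in progeny, and no member was called in any of them. For Lfng the adjusted p was 0.85 at D4 and 0.38 at D6, with a level at least 86.4-fold lower at D6 against a floor of 3 counts over the condition, or 51.5-fold without Sox1+FoxA2- replicate 1. In progeny the difference was -2.71 (log2, SE 1.16, adjusted p = 0.418) at D4 and -3.29 (SE 1.32, adjusted p = 0.195) at D6. DESeq2 called the gap at D6 (adjusted p = 0.0382) and in D6 progeny (adjusted p = 0.0249). The extraembryonic endoderm marker sum moved with this gap, at 353022 to 741471 in D6 progeny of Sox1-FoxA2+ and 11989 to 28362 in D6 progeny of Sox1+FoxA2- cells, and the sum of 6 neural progenitor markers moved the other way, at 6171 to 9667 and 42646 to 66241. The part of cell makeup in the Lfng values was not tested.

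Within Sox1-FoxA2+ cells Lfng stood at 9.03, 274 and 147 at D2 and at 0 in all 3 D6 libraries, at least 124-fold lower at D6, or 67.5-fold without D2 replicate 2, with an adjusted p of 0.233 in edgeR and 0.016 in DESeq2. The change of the gap between the gates from D2 to D6 was not called by edgeR (adjusted p = 0.329, with 0.275% of genes called) and was called by DESeq2 (adjusted p = 0.0243). The highest single value of Lfng, 1264, was in replicate 3 of D2 Sox1+FoxA2+ cells, whose other libraries had 35.9 and 107. The same library held 1084 of Hey1 and 909 of Heyl, and had no count of Dll1.

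The target genes differed in abundance. Hes1, a repressor that many cells use, was found in all libraries, with a median condition mean of 324 normalized counts per kilobase, close to the 352.7 of Notch2. Hes5, a repressor of neural progenitors, was listed at 0 in 52 of the 57 libraries. Hey1, a related repressor, was listed at 0 in 13 libraries and had a median of 16.2 per kilobase.

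**Figure D3:**
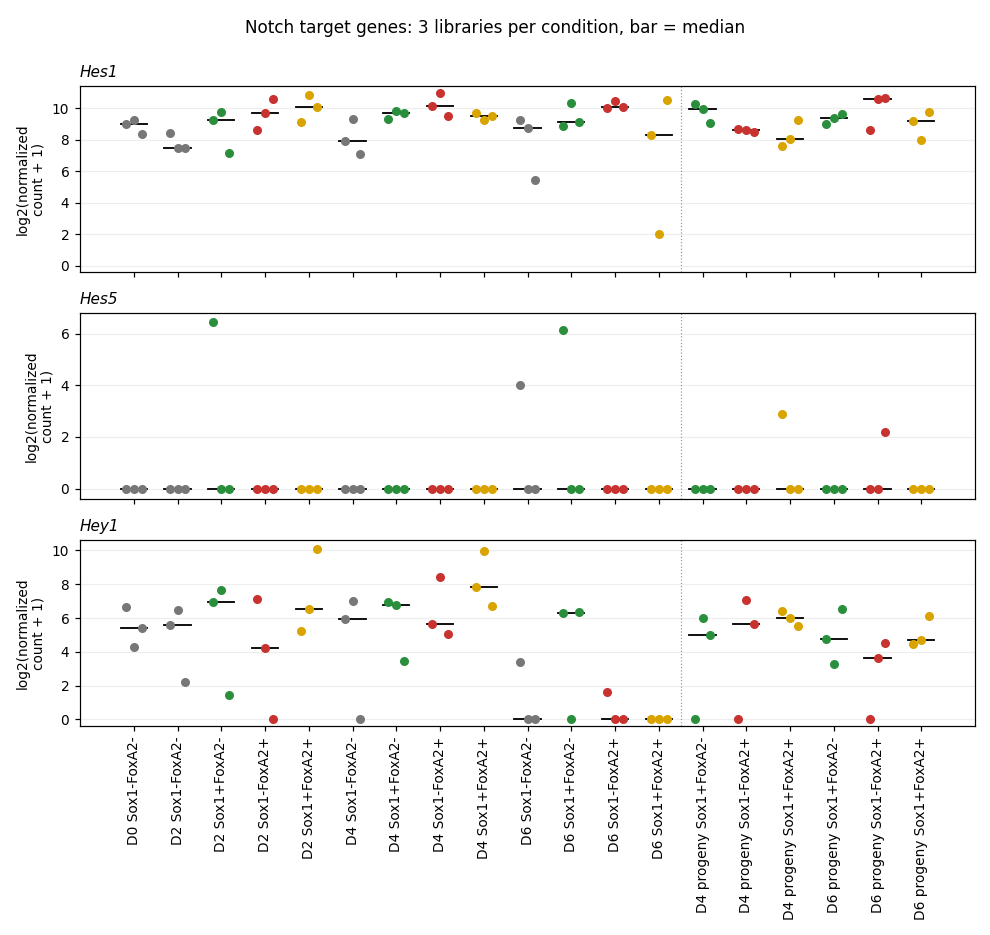
Levels of Hes1, Hes5 and Hey1 in the 57 libraries, as log2(normalized count + 1) on the vertical axis, for the 19 conditions on the horizontal axis. Points, bars, colours (grey Sox1-FoxA2-, green Sox1+FoxA2-, red Sox1-FoxA2+, yellow Sox1+FoxA2+) and the dotted line are as for the receptors. Hes5 lies at 0 except in 5 libraries, and Hey1 lies at 0 in all 3 D6 Sox1+FoxA2+ libraries.

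Hes1 was highest in D4 Sox1-FoxA2+ cells, at 1152, 2006 and 748, and lowest in D2 Sox1-FoxA2- cells, at 348, 176 and 176. Sorted D4 Sox1+FoxA2- cells had 638, 931 and 825, within the range of the Sox1-FoxA2+ cells. In D4 progeny the order of the gates was the other way round, with 418, 402 and 362 in Sox1-FoxA2+ progeny and 1234, 1005 and 527 in Sox1+FoxA2- progeny. The ranges in progeny did not overlap, and the difference of -1.18 (log2, SE 0.484, adjusted p = 0.388) was not called, against 0.78 (SE 0.686, adjusted p = 1) in sorted cells. The test of the change in this gap between sorted cells and progeny gave -2 (SE 0.783, adjusted p = 1). That comparison had no gene of 24857 called by edgeR (percent called 0). There 1189 genes, Hes1 and Lfng among them, had an unadjusted p under 0.05, and DESeq2 called 289 genes and no member.

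From D4 to D6, Hes1 in Sox1-FoxA2+ progeny went from 418, 402 and 362 to 391, 1564 and 1658. A D6 library lay within the D4 range and the others were above it. The difference was 1.62 (log2, SE 0.525, adjusted p = 0.262), and 2.03 without that D6 library, replicate 1, when it was called (adjusted p = 0.04). The percent called from D4 to D6 was 0.4 in Sox1-FoxA2+, 0.025 in Sox1+FoxA2- and 0.104 in Sox1+FoxA2+ progeny, with no member called. In the D6 Sox1+FoxA2+ libraries Hes1 was at 310, 3.03 and 1489, the widest range of Hes1 in any condition relative to its mean.

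Hes5 had counts in 1 replicate of each of 5 conditions. The values were 87.1 in D2 Sox1+FoxA2-, 15.3 in D6 Sox1-FoxA2-, 70 in D6 Sox1+FoxA2-, 6.39 in D4 progeny of Sox1+FoxA2+ and 3.59 in D6 progeny of Sox1-FoxA2+ cells. The highest of them rested on 90 counts, and only 3 libraries had at least 10. The gene did not pass the filter in any comparison and was not tested.

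Hey1 stood at 35.9, 92.6 and 1084 in D2 Sox1+FoxA2+ cells and at 0 in all 3 D6 libraries of this gate, at least 393-fold lower at D6 against a floor of 3 counts over the condition. The D2 mean rested mainly on replicate 3, without which the bound was 62.5-fold. The adjusted p was 0.236 in edgeR and 2.32e-06 in DESeq2. In edgeR it was 0.422 without D6 replicate 1 and 0.472 without D6 replicate 3. The highest condition mean, 450 in D4 Sox1+FoxA2+ cells, came from 232, 1014 and 105. At D6 all sorted conditions had low values, with 79.2, 0 and 79.5 in Sox1+FoxA2-, 2.04, 0 and 0 in Sox1-FoxA2+ and 9.74, 0 and 0 in Sox1-FoxA2- cells.

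**Figure D4:**
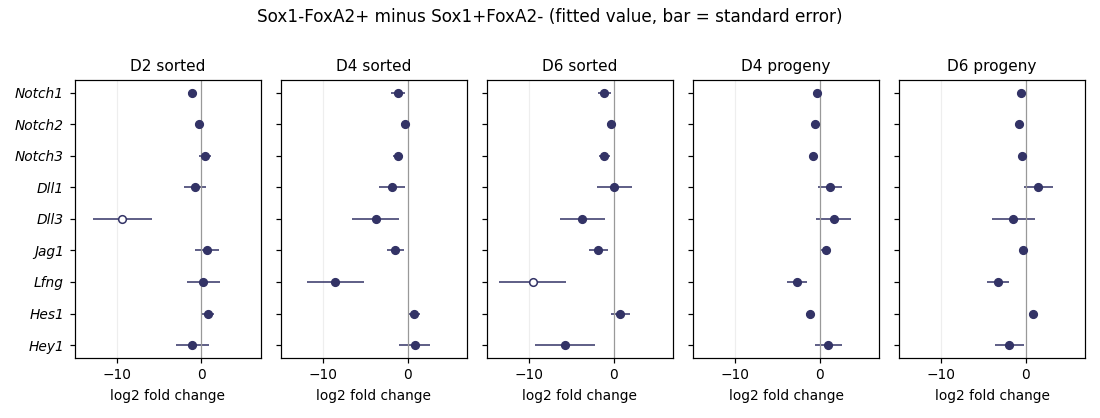
Fitted log2 differences (edgeR), Sox1-FoxA2+ minus Sox1+FoxA2-, on the horizontal axis for the 9 tested members on the vertical axis, in sorted cells of D2, D4 and D6 and in progeny of D4 and D6. Bars are standard errors, and open symbols mark a difference against a condition with all libraries at 0, whose fitted value depends on the prior count and is no bound. Lfng lies below 0 in the 4 comparisons of D4 and D6 and at 0.24 at D2, and no difference shown was called.

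The plot of fitted differences sets the members side by side. Values above 0 were found in sorted cells for 4 (D2), 2 (D4) and 2 (D6) of the 9 tested members, and in progeny for 4 (D4) and 2 (D6). In sorted cells those of the later days were Hes1 (0.78) and Hey1 (0.84) at D4 and Hes1 (0.77) and Dll1 (0.08) at D6. The median difference of the members was -0.32 at D2, -1.13 at D4 and -1.11 at D6, beside -0.02, -0.1 and -0.3 over all genes tested. In progeny it was -0.3 at D4 and -0.56 at D6, beside -0.02 and -0.04. In sorted cells, libraries did not overlap for 3 members at D2 (Notch1, Dll1 and Dll3), 3 at D4 (Dll1, Dll3 and Lfng) and 4 at D6 (Notch1, Notch3, Dll3 and Lfng). In progeny they did not overlap for 2 at D4 (Lfng and Hes1) and 2 at D6 (Notch2 and Lfng). Over all genes tested, the share whose libraries did not overlap was 10.1%, 11.4% and 23.2% in sorted cells of D2, D4 and D6, and 14.2% and 26.1% in progeny of D4 and D6. No member was called.

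Sox1+FoxA2+ cells were compared with each single-reporter population. Against Sox1+FoxA2- cells the percent called was 0 (D4) and 0.0992 (D6) in sorted cells and 0 (D4) and 0.152 (D6) in progeny. Against Sox1-FoxA2+ cells it was 0.462 and 0.0454 in sorted cells and 0.768 and 4.48 in progeny, for D4 and D6. No member was called in any of these. In the comparisons with 0 genes called by edgeR, 1531 genes at D4 (Notch1 among them) and 954 in D4 progeny (Hes1 among them) had an unadjusted p under 0.05, and DESeq2 called 300 and 34 genes and no member. Lfng in D6 Sox1+FoxA2+ cells was at 77.6, 0 and 34.8, and in D6 progeny it was at 129, 91.1 and 22.6, a range that overlapped both other progeny populations. Hes1 in D4 progeny of Sox1+FoxA2+ cells was at 192, 271 and 605, close to Sox1-FoxA2+ progeny and with 1 library above the lowest Sox1+FoxA2- library.

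Progeny and sorted cells of the same gate were compared as a mean over the 3 gates. In these means the 9 libraries of a series are 3 gates with 3 replicates each. Same-numbered libraries deviated together in some pairs of gates of a day, so the 9 are not fully independent. Notch2 was higher in D6 progeny, with a mean of 5084 against 3021 normalized counts. The fitted difference was 0.91 (log2, SE 0.219, n = 9 against 9, adjusted p = 0.00675 in edgeR). The ranges overlapped. The percent called in this comparison was 14, and the median over all genes tested was -0.21. The call was kept without each of the 18 libraries in turn and in every other alternative, with values from 0.77 to 1.06, and it was 0.95 without the library that lacked Foxa2 and 1.02 without replicate 3 of its condition. Notch3 (0.73, SE 0.271, adjusted p = 0.0716), Lfng (adjusted p = 0.0997) and Hey1 (adjusted p = 0.0784) were not called by edgeR, and DESeq2 called Lfng and Hey1. Markers also differed between these series. All 6 pluripotency markers were called, 5 of them lower in progeny, with sums of 1647 to 13076 in progeny and 3582 to 17676 in sorted libraries of these gates. Of 6 neural progenitor markers 4 were called higher and 1 lower, with sums of 6171 to 66241 and 4399 to 18614. Their part in the results was not tested. Lfng and Hey1 both have a D6 sorted condition with all libraries at 0, so their fitted values are no bound. The change of the gap between the Sox1-FoxA2+ and Sox1+FoxA2- gates from sorted cells to progeny at D6 had a percent called of 0.0196 and no member called.

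At D4 the same comparison called none of the 9 tested members in edgeR, with a percent called of 7.01, and 1 member, Hes1, had an unadjusted p under 0.05. Hes1 had a mean of 557.4 in progeny and 942.6 in sorted cells, with a difference of -0.79 (log2, SE 0.319, adjusted p = 0.132 in edgeR and 0.0369 in DESeq2). Notch2, called at D6, had -0.09 (SE 0.233, adjusted p = 0.897) at D4. Whether the D4 and D6 differences differ was not tested.

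Of 42 other genes of the pathway, 9 were called at least once, with 20 calls in 7 of the 26 comparisons. In those 7 comparisons the percent called over all genes tested was 0.4 to 14. The share of all genes called at least once was not computed, so these counts are not read as a result about the pathway. In the first 2 days of RA, 4 of 39 tested rose in Sox1-FoxA2- cells and none fell, beside 1.41% called over all genes, with 183 higher and 117 lower. Maml3, which encodes a Mastermind coactivator, was at 126, 174 and 446 at D0 and at 3418, 1193 and 3247 at D2, a difference of 3.47 (log2, SE 0.594, adjusted p = 0.00978). All D2 libraries were above all D0 libraries. Neurl1b, a ubiquitin ligase that acts on ligands, was at 0, 0 and 2.07 at D0 and at 226, 141 and 307 at D2 (adjusted p = 0.0076). Adam10, a protease that cuts the receptors, was at 752, 990 and 178 and then at 2868, 3480 and 3467, a difference of 2.35 (SE 0.502, adjusted p = 0.0291), a call lost without D0 replicate 1 or any 1 of the D2 libraries (adjusted p up to 0.0702). Numb, a pathway inhibitor, differed by 1.28 (SE 0.305, adjusted p = 0.0474), and its call was lost in 6 of 11 alternatives.

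**Figure D5:**
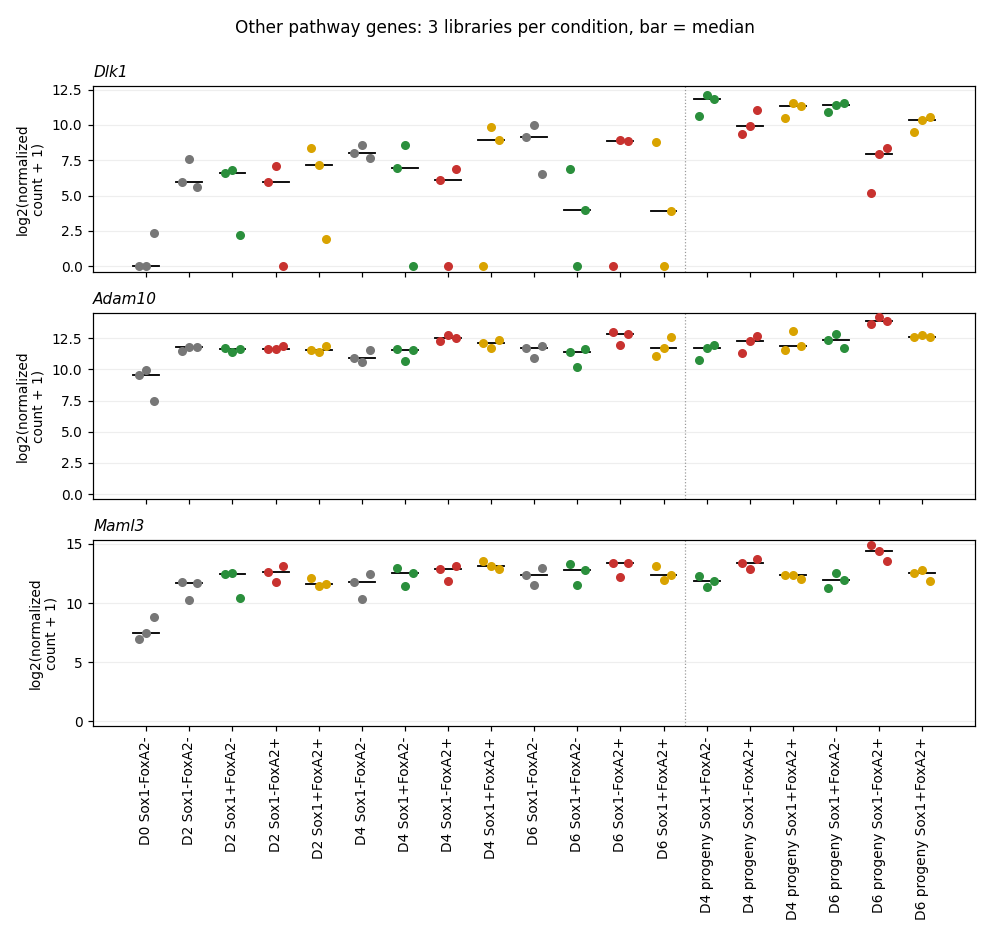
Levels of Dlk1, Adam10 and Maml3 in the 57 libraries, as log2(normalized count + 1) on the vertical axis, for the 19 conditions on the horizontal axis. Points, bars, colours (grey Sox1-FoxA2-, green Sox1+FoxA2-, red Sox1-FoxA2+, yellow Sox1+FoxA2+) and the dotted line are as for the receptors. In D6 progeny the red Sox1-FoxA2+ points of Adam10 (12407 to 18294) and Maml3 (12123 to 30308) lie above both other populations and those of Dlk1 (34.5 to 325) below them.

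In D6 progeny, Maml3 was at 30308, 22131 and 12123 in Sox1-FoxA2+ cells, at 2439, 6042 and 3840 in Sox1+FoxA2- cells and at 6085, 7010 and 3764 in Sox1+FoxA2+ cells. The Sox1-FoxA2+ libraries were above all others. Against Sox1+FoxA2- progeny, Maml3 in Sox1-FoxA2+ progeny was higher by 2.35 at D6 (log2, SE 0.397, adjusted p = 0.00217) and by 1.48 at D4 (SE 0.275, adjusted p = 0.00713), the D4 call being lost with all 57 libraries in 1 fit. Adam10 was at 12407, 18294 and 15463 in D6 progeny of Sox1-FoxA2+ cells and at 5346, 7114 and 3329 in those of Sox1+FoxA2- cells, a difference of 1.5 (SE 0.274, adjusted p = 0.00384) whose call was lost with all 57 libraries in 1 fit (adjusted p = 0.0966). Sox1+FoxA2+ progeny, at 6302, 7016 and 6278, were 1.25 lower than Sox1-FoxA2+ progeny on the same scale (log2 difference -1.25, SE 0.272, adjusted p = 0.0182), and this call was lost in that fit and without replicate 1 or 2 of Sox1+FoxA2+ or replicate 2 of Sox1-FoxA2+ progeny.

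Dlk1, a membrane protein related to the Delta-like ligands, fell in Sox1-FoxA2+ progeny from 667, 954 and 2089 at D4 to 34.5, 239 and 325 at D6 (log2 difference -2.63, SE 0.573, adjusted p = 0.0393). At D6 it was at 1950, 2681 and 3068 in Sox1+FoxA2- progeny, and the difference between the gates was -3.74 (SE 0.6, adjusted p = 0.00152). Sox1+FoxA2+ progeny had 726, 1333 and 1481, above all Sox1-FoxA2+ libraries (2.57, SE 0.571, adjusted p = 0.0203). With all 57 libraries in 1 fit none of these 3 calls was kept, the first was also lost without D6 replicate 2 or D4 replicate 3, and the last without replicate 2 or 3 of the Sox1+FoxA2+ progeny. Numbl, related to Numb, was higher by 1.43 in Sox1+FoxA2+ than Sox1-FoxA2+ progeny (SE 0.36, adjusted p = 0.0385), a call that was lost in 6 of 11 alternatives.

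As a mean over gates, 5 of 40 tested pathway genes were higher in D6 progeny than in D6 sorted cells, and none was lower, a share below the 14% called over all genes. Furin, which cuts the receptor before it reaches the membrane, had a mean of 2047 against 762.1 (log2 difference 1.6, SE 0.264, adjusted p = 0.000232). Its libraries did not overlap between progeny and sorted cells. Adam10 (1.25, SE 0.235, adjusted p = 0.000834) and Poglut1, which glycosylates receptors (1.56, SE 0.325, adjusted p = 0.00214), were called in all 23 alternatives as well. Dlk1 (2.96, SE 0.905, adjusted p = 0.0309) was lost without D6 Sox1+FoxA2- replicate 3, at an adjusted p of 0.0582. At D4 Dlk1 (3.76, SE 0.853, adjusted p = 0.00739) and Furin (1.42, SE 0.347, adjusted p = 0.0126) were called and kept in all alternatives. The Rbpj transcript, at 14012 ± 3989 (SD, n = 3) at D0 and 13586 ± 6440 (SD, n = 3) in D2 Sox1-FoxA2- cells, was not called in that comparison (log2 difference -0.01, SE 0.363, adjusted p = 1) or in any of the other 25.

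The proneural transcription factors, which the pathway is known to restrain, were sparse. At D6 the 8 genes of this list summed to 121 to 665 normalized counts in Sox1+FoxA2- and to 0 to 77.3 in Sox1-FoxA2+ cells. In D4 progeny the ranges of these gates were also apart, at 83.8 to 753 and 8.89 to 40.3. They overlapped at D2, at 1.77 to 567 and 0 to 55, and at D4, at 14.6 to 1411 and 0 to 286. In D6 progeny they overlapped as well, at 18.4 to 105 and 37.7 to 55.5. Neurog1 was called between D4 progeny and D4 sorted cells (adjusted p = 0.0384). It was at 0 in 8 of 9 D4 progeny libraries, and its call was lost in 14 of 23 alternatives.

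The genes most like each member were listed by Pearson's r over the 19 condition means of log2(normalized count + 1), as a description with no test. The conditions share libraries of one clone, and sparse genes share their zeros. For Notch2 they were Farp2 (0.905), Hoxb4 (0.904) and Wls (0.879), and for Notch1 they were Dnaja4 (0.823), Cacna1h (0.817) and Mmd (0.799). Notch3 was nearest to 7630403G23Rik (0.828), Gm26511 (0.824) and Slc22a15 (0.811). Dll1 was nearest to Tonsl (0.878), Tubgcp2 (0.822) and Mettl25 (0.803). Jag1 was nearest to Fam83b (0.881), Blcap (0.871) and Itga1 (0.854). Lfng was nearest to Ccdc136 (0.846), Mapk8ip1 (0.817) and Tcp11l1 (0.813). Hes1 was nearest to Ykt6 (0.807), Commd2 (0.792) and Nkapd1 (0.772), and Hey1 to Gpc1 (0.788), Nptx2 (0.786) and Sox13 (0.77). Dll3 was nearest to Ak7 (0.91), Gm47001 (0.904) and Gm29283 (0.868). Between members, r was 0.625 for Notch1 and Notch2, 0.591 for Notch2 and Notch3 and 0.556 for Notch1 and Lfng.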

How the data were processed

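RNA was measured by bulk sequencing of 57 libraries made with the SMART-Seq Stranded kit. The deposited values are raw counts per gene, made by the authors with STAR, SAMtools and featureCounts against GENCODE M21. Versions and counting options are not given in the sources used here. No column of the table was left unused. Rows that name no gene (92, with 0 counts) were left out. The members and the lists of other genes were chosen with earlier results of these data known. The text names all 10 members, the other pathway and proneural genes called in a comparison (except 2 that are not reported here), and for each member but Hes5, which had counts in only 5 libraries, the 3 genes with the highest Pearson r. Genes outside this rule (Rbpj, and Heyl in 1 library) were chosen after their values were seen.

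Groups came from the labels, and the study describes the 3 libraries of a condition as biological replicates. Counts were tested in edgeR 4.0.16 (R 4.3.3) with TMM factors, filterByExpr (minimum count 10, total 15), the quasi-likelihood test (two-sided) and Benjamini-Hochberg adjustment over all genes tested, on the fits of the conditions concerned. The prior count of fitted differences was 0.125. Normalized counts are counts divided by DESeq2 1.42.0 size factors over all libraries, and a level per kilobase divides them by the union exon length. A fold against a condition with all libraries at 0 uses a floor of 3 counts over the condition. This floor covers counting error at most, and falls short of that if a fragment added more than 1 count, which was not tested. Library totals are given in the text. Sparse members such as Hes5 and Dll3 were at 0 in libraries with high totals as well, so totals alone do not set their precision. The study describes a limited number of cells per library, and its part in the zeros was not tested. Genes wholly inside exons of genes on the other strand had a count in 5 of 460 cases (1.09%). The share was 91 of 712 (12.8%) for genes wholly inside exons of genes on their own strand. It was 29739 of 43557 (68.3%) for genes that share no exon base. Counts separated by strand would keep the reads of the first kind of gene, so these shares do not show such a separation. Reads in shared exon bases may have been left out, which was not tested.

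Alternatives were the DESeq2 Wald test, DESeq2 size factors, no filter on low counts, the replicate number as a block, all 57 libraries in 1 fit, and each library left out. Same-numbered libraries deviated together (correlation of deviations over 0.1 in every pair, over 5000 genes) in 10 of 21 comparisons of 2 conditions. There the pairing rests on the data alone, since the labels do not say what a number shares. In simulated counts, where 200 genes had a true log2 change of 3, the test was checked, and of these 39% were recovered between D2 and D0 Sox1-FoxA2- (21278 genes), 29.5% between D6 Sox1-FoxA2+ and Sox1+FoxA2- (24203 genes), 62.5% for the same gates in D6 progeny (21069 genes), 57% between D6 progeny and sorted cells (25515 genes) and 21.5% for the change of the gap between those gates from sorted cells to progeny at D6 (25515 genes). All conditions started from a common mean, and the changed genes were drawn above a minimum mean count, so these shares do not cover sparser genes. Of the 83, 65, 129, 121 and 45 genes called, in the same order, 5, 6, 4, 7 and 2 had no true change. Figures were drawn with matplotlib 3.10.9 in Python 3.11.15.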

Additional observations from a re-analysis of the deposited data

How the results depend on the processing

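With the DESeq2 Wald test in place of edgeR, the number of members called moved from 0 to 2 for D6 minus D2 Sox1-FoxA2+ (Notch3, Lfng), to 1 for D6 minus D2 Sox1+FoxA2- (Jag1), to 2 for D6 minus D2 Sox1+FoxA2+ (Jag1, Hey1), to 1 each for Sox1-FoxA2+ minus Sox1+FoxA2- at D6 and in D6 progeny (Lfng) and for its change from D2 to D6 (Lfng), to 1 for Sox1+FoxA2+ minus Sox1-FoxA2+ in D6 progeny (Notch2) and to 1 for D4 progeny minus sorted cells (Hes1). It moved from 1 to 4 for D6 progeny minus sorted cells (Notch2, Dll1, Lfng, Hey1). Over all genes tested, DESeq2 called 1456 of 19407, 865 of 22328 and 1663 of 21429 in the D6 minus D2 comparisons, in the order above. It called 1399 of 24696 for the change from D2 to D6 and 3907 of 24857 for D4 progeny minus sorted cells. For Sox1+FoxA2+ minus Sox1-FoxA2+ in D6 progeny it called 1887 of 21069. Without a filter on low counts 1 member was called for D6 minus D2 Sox1+FoxA2+ (Hey1), 1 for Sox1+FoxA2+ minus Sox1-FoxA2+ in D6 progeny (Notch2) and 1 for D6 minus D4 progeny of Sox1-FoxA2+ (Hes1). With all 57 libraries in 1 fit 2 were called for D6 minus D2 Sox1+FoxA2+ (Jag1, Hey1) and 2 for D6 progeny minus sorted cells (Notch2, Hey1). With 1 library left out, the D2 minus D0 count was 0 for each of the 6 libraries, from 0 to 0. The count was 0 to 1 for Sox1+FoxA2+ minus Sox1-FoxA2+ in D6 progeny, for D6 minus D4 progeny of Sox1-FoxA2+ and for D4 progeny minus sorted cells (Lfng without D4 Sox1+FoxA2+ replicate 3), and 1 to 3 for D6 progeny minus sorted cells (Notch3 and Dll1 added without D6 Sox1+FoxA2+ replicate 2). Directions were followed only for the 16 member differences called by edgeR or in an alternative that kept all libraries, so they give no rate for all member tests. Of these 16, 1 turned in direction, Dll1 in D6 progeny minus sorted cells. There the log2 difference ranged from -3.18 to 0.48 with 1 library left out and was above 0 without D6 Sox1+FoxA2+ replicate 1. Without that library the gate holds only libraries at 0, so the fitted value depends on the prior count and is no bound. DESeq2 size factors changed no count of members.

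With the replicate block, no count of members changed. The Notch2 difference was 1.77 (adjusted p = 0.0136) for D2 minus D0, where the numbers do not pair the libraries. It was 0.93 (adjusted p = 0.00798) for D6 progeny minus sorted cells, where pairing by number between the series was not checked. The call of Neurog1 was lost with the block.

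The counts over all genes were over 1.5 times higher with DESeq2 in 26 of 26 comparisons, with no filter in 23 and with the block in 17, and with all 57 libraries in 1 fit they were higher in 7 and lower in 9. For D2 minus D0, 300 genes were called by edgeR, 1663 by DESeq2, 600 with the block and 1006 with no filter, and 61 to 432 with 1 library left out. For D6 progeny minus sorted cells DESeq2 called 6152 and edgeR 3570. For Sox1-FoxA2+ minus Sox1+FoxA2- edgeR called 52 at D4, 263 at D6, 385 in progeny of D4 and 1428 in those of D6, against 534, 1641, 816 and 2290 with DESeq2, 251, 581, 740 and 2114 with no filter, and 162, 604, 930 and 1608 with the block. For Sox1+FoxA2+ minus Sox1+FoxA2- in D6 progeny the count was 32, against 365 with DESeq2 and 554 with no filter. DESeq2 size factors shifted the median of all genes by 0.13 to 0.21 (log2) in the 5 comparisons of D4 or D6 Sox1+FoxA2+ cells and by -0.13 for D6 progeny minus sorted cells, against TMM. The median coefficient of variation over conditions was 47.81% (Jag1) to 173.2% (Hes5) for members listed at 0 in some libraries and 27.79% (Notch2) to 54.12% (Hes1) for the others, so a difference that was not called is not shown to be absent.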
